A study of Mus musculus with 4 samples.

Results

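RANKL, OPG and the osteoclast genes are 9 genes taken by symbol from single-cell count tables of mouse bone marrow: Tnfsf11 (RANKL), Tnfrsf11b (OPG), Tnfrsf11a (RANK), Ctsk, Acp5, Ocstamp, Dcstamp, Atp6v0d2 and Calcr. All 9 are among the 26600 genes listed for every library (27999 genes were listed at 1, 1.5 and 3 months and 31054 at 16 months). The cells were tdTomato-positive (Td+) endosteal bone marrow cells of male Col2:Td mice, which carry Col2-Cre and the Rosa26 lsl-tdTomato reporter on a B6SJL/F1 background. One 10x library was made per age, from 2 pooled mice at 1 month and from 3 pooled mice each at 1.5, 3 and 16 months. In these mice Cre is driven by the type II collagen promoter, so a cell is labelled if it, or a cell it descends from, used that promoter. Sorting took the Td+ peak, or the brightest 1% of cells where no peak was seen, and all 4 libraries share the alleles and the sort. Age, library, pooled mice and any batch cannot be told apart with 1 library per age, so no test was made across ages or classes.

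RANKL is a membrane-bound or shed cytokine that binds RANK on precursors of the monocyte and macrophage lineage and drives them to become osteoclasts, the multinucleated cells that resorb bone. OPG is a secreted decoy receptor that binds RANKL and keeps it from RANK, and the balance of ligand and decoy is a main control of bone resorption. Osteoclasts fuse from mononuclear precursors (Ocstamp, Dcstamp), acidify the space under the cell with a vacuolar proton pump (Atp6v0d2), secrete cathepsin K (Ctsk) and tartrate-resistant acid phosphatase (Acp5), and carry the calcitonin receptor (Calcr).

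The libraries held 8417, 5745, 4516 and 9229 cell barcodes at 1, 1.5, 3 and 16 months, with 108227184, 63258961, 32672631 and 93269331 unique molecular identifiers (UMIs, each counted as 1 captured transcript). A barcode counted as a cell if it held between 200 and 6000 genes and no more than 5% of its UMIs were mitochondrial, which left 8308, 5453, 4180 and 6143 cells. The 16-month library stood apart: 32.4% of its barcodes were over the mitochondrial limit, against 1.16 to 7.22% in the younger libraries. It also was counted on a different gene table and shared 1 or 2 barcodes with each younger library, which shared 30 to 61 with each other. Cells were clustered without the 9 genes and named from other markers as adipocyte-lineage (AD)-like, early (EMP)-like and late (LMP)-like mesenchymal progenitors, osteoblast (OB)-like, osteocyte (Ocy)-like and chondrocyte (CH)-like cells, besides blood and vessel classes. Clusters that met no name are given by their leading genes. Free RNA was uneven: neutrophil markers summed to 13839 CPM in AD-like cells at 1 month, but to 245, 2252 and 261 CPM at 1.5, 3 and 16 months. Neutrophil-like cells, which should lack RANKL, OPG and most of the osteoclast genes, are therefore given below as the background of each library. Levels are counts-per-million values (CPM), taken from all UMIs of the cells in a class, with exact 95% Poisson intervals. Shares have exact Clopper-Pearson intervals, and both cover counting error only. UMIs come from transcript 3′ ends and are not scaled by length, so levels are compared between classes and not between genes.

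Promoter sequence was available for the ligand and for the best-counted osteoclast genes, and is shown because Ctsk and Acp5 were high together in osteoclast-like cells while Tnfsf11 was high in stromal cells. Each window runs from 250 bases before to 50 after an annotated RefSeq start (GRCm38.p6), 5′ to 3′ on the gene's strand, with the motifs searched in capitals. All were searched on both strands. For factors that act in osteoclasts, the NFAT core was searched as GGAAA, the binding box of PU.1 was written as GAGGAA, and the AP-1 site was written as TGANTCA, where N is any base. The M-box bound by MITF was written as CATGTG. The site of RUNX factors, which act in osteoblasts and chondrocytes, was written as TGTGGT. For general promoter features, the TATA box was written as TATAAA and the GC box, the letters bound by the factor Sp1, as GGGCGG. Tnfsf11 lies on chromosome 14 (chr14:78277445-78308043, minus strand), Ctsk on chromosome 3 (chr3:95499256-95509362, plus strand) and Acp5 on chromosome 9 (chr9:22126727-22135711, minus strand).
Tnfsf11, chr14:78307994-78308293, minus strand: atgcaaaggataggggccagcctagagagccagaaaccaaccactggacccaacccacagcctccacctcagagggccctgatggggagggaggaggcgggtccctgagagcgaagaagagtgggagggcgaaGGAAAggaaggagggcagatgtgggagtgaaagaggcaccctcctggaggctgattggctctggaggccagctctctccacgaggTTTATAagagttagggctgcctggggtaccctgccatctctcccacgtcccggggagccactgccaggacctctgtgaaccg
Ctsk, chr3:95498960-95499259, plus strand: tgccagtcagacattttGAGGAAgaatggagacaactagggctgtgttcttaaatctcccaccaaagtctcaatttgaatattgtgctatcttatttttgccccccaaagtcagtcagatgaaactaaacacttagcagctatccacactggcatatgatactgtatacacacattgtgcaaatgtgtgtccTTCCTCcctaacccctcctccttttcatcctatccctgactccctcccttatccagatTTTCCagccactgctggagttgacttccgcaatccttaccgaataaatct
Acp5, first of 3 annotated starts, chr9:22130549-22130848, minus strand: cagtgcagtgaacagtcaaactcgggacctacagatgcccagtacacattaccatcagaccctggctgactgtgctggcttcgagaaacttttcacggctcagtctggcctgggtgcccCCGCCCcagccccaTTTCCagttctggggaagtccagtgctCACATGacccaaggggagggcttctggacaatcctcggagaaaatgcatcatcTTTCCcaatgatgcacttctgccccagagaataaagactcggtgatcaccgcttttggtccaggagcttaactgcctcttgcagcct
The Tnfsf11 window held an NFAT core at -117 and a TATA box at -32 from the start. The Ctsk window held PU.1 boxes at -233 and -58 and an NFAT core at the start itself. The Acp5 window shown is first by chromosome position, and so the most downstream start on the minus strand. The windows of its other annotated starts held no M-box. The window shown held NFAT cores at -117 and -37, an M-box at -90 and a GC box at -131. Such matches are frequent: of 32851 promoter windows, 61.3% held the NFAT core, 28.3% the PU.1 box, 7.81% the AP-1 site, 14.2% the M-box, 16.8% the RUNX site, 13.6% the TATA box and 35.7% the GC box. They describe letters and not bound sites.

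To ask which cells made RANKL, the level of Tnfsf11 was compared across classes in each library. Tnfsf11 was highest among the named mesenchymal classes in AD-like cells in all 4 libraries, and it was near background in osteoblast-like and osteocyte-like cells in most of them. In AD-like cells it reached 401 CPM at 1 month (interval 378 to 425, 346 cells) and 422 CPM at 1.5 months (408 to 436, 1338 cells). At 3 months the level was 197 CPM (177 to 218, 420 cells), and at 16 months it was 102 CPM (98.8 to 105, 3736 cells).

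The study places late mesenchymal progenitors before the branch into osteogenic and adipogenic lineages. LMP-like cells held 27.1, 61.9, 44.4 and 72.1 CPM in order of age. EMP-like cells held 13.7 and 11.0 CPM in the youngest libraries, below LMP-like cells, and 80.1 CPM at 3 months, above them. At 3 months EMP-like cells also held 372 CPM of Tyrobp, a gene high in macrophage-like cells (2857 CPM). LMP-, OB-, AD- and CH-like cells of that library held 25.9 to 45.3 CPM of it. The part of blood-cell RNA in the 3-month EMP-like values, here and below, was not tested. At 16 months EMP-like cells held 70.2 CPM, and their interval (56.2 to 86.7 CPM) and that of LMP-like cells (61.9 to 83.5 CPM) overlapped. CH-like cells stayed between 8.26 and 14.8 CPM, and their 1-month value of 9.62 CPM was 2.71 CPM at a clustering resolution of 1.2 and 3.17 CPM with the library clustered alone. OB-like cells, the bone-forming cells, held 2.93, 15.6, 4.66 and 5.04 CPM, and Ocy-like cells, the cells embedded in bone matrix, 1.50, 18.7, 3.91 and 15.4 CPM, the latter from 1 to 25 UMIs. Neutrophil-like cells read 2.03, 19.3, 1.11 and 0.595 CPM, the second value from 4 UMIs in 21 cells. Among vessel classes, endothelial-like cells held 82.0 CPM at 1.5 months (50.8 to 125, 21 UMIs in 28 cells), against 2.80 to 15.5 CPM in the other libraries. Mural-like cells, the support cells of vessels, held 44.2, 14.3, 7.51 and 50.3 CPM, from 26 to 79 cells. The osteoblast-like and osteocyte-like levels at 1, 1.5 and 3 months were thus at or near what a class that should lack the gene showed, and osteocyte-like cells were too few (33 to 96 cells) to place finely.

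**Figure D1:**
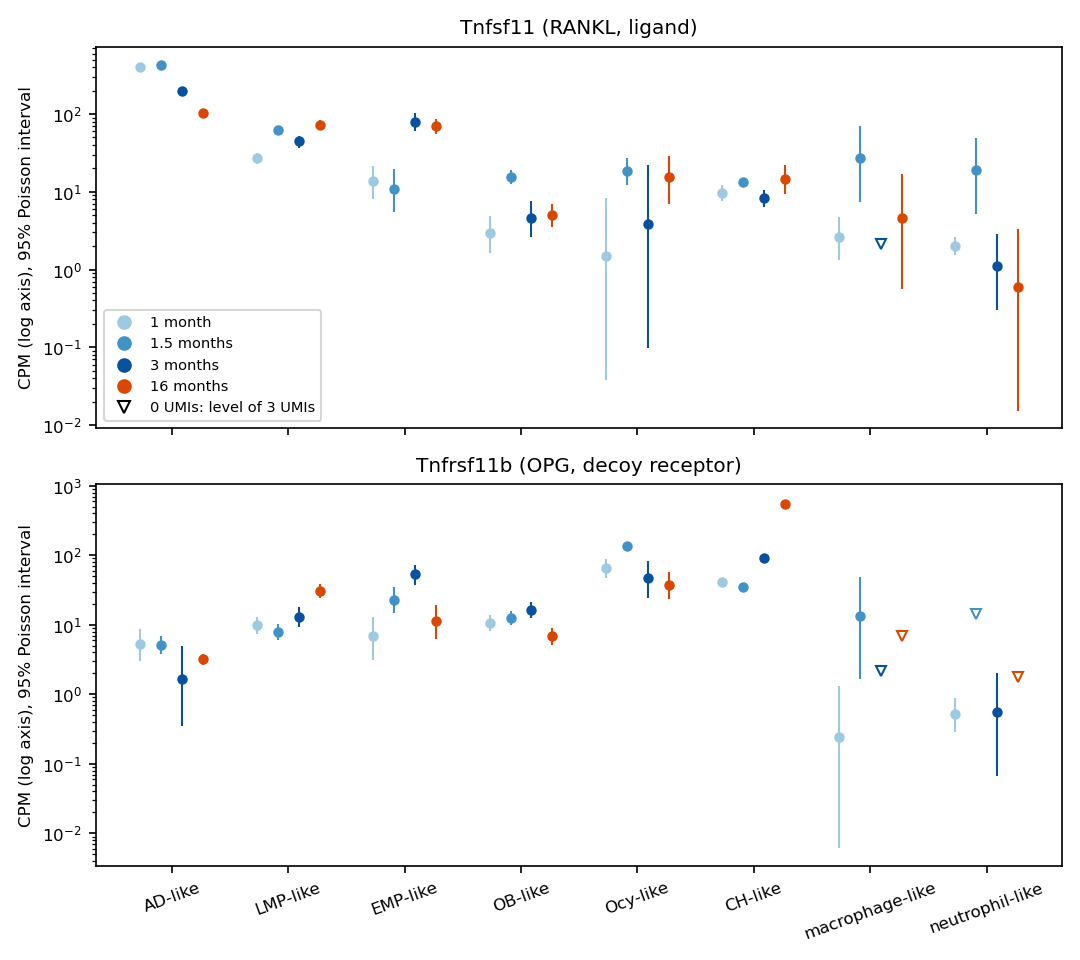
Level of Tnfsf11 (top) and Tnfrsf11b (bottom) by class in each library, in CPM on a log axis, with points for summed UMIs, bars for exact 95% Poisson intervals and open triangles for classes at 0 UMIs, drawn at the level of 3 UMIs. Among these classes Tnfsf11 is highest in AD-like cells (401, 422, 197 and 102 CPM), and Tnfrsf11b in CH-like cells at 16 months stands at 555 CPM.

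By detection, 76.0, 70.7, 43.3 and 38.7% of AD-like cells held a Tnfsf11 UMI, in order of age. The median AD-like cell had 7590, 5999, 3938 and 9746 UMIs, so the cells were also thinned to 3000 UMIs each. The thinned shares were 54.6, 55.3, 35.9 and 18.8%, which left 16 months lowest although its cells were the deepest. In neutrophil-like cells the unthinned shares were 2.85, 19.0, 0.853 and 0.385%, and thinned they were 0.484, 0, 0.721 and 0%.

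Per AD-like cell the mean was 3.28, 2.69, 0.838 and 1.04 UMIs in order of age, with SDs over cells from 1.40 at 3 months to 4.11 at 1 month. The highest cell held 26, 24, 11 and 40 UMIs, and 83, 392, 238 and 2290 cells held none. The top 10% of AD-like cells carried 40.5, 42.3, 49.1 and 61.6% of the class's Tnfsf11 UMIs. The 16-month class therefore had both the largest share of cells without a UMI and the cell with the most.

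**Figure D2:**
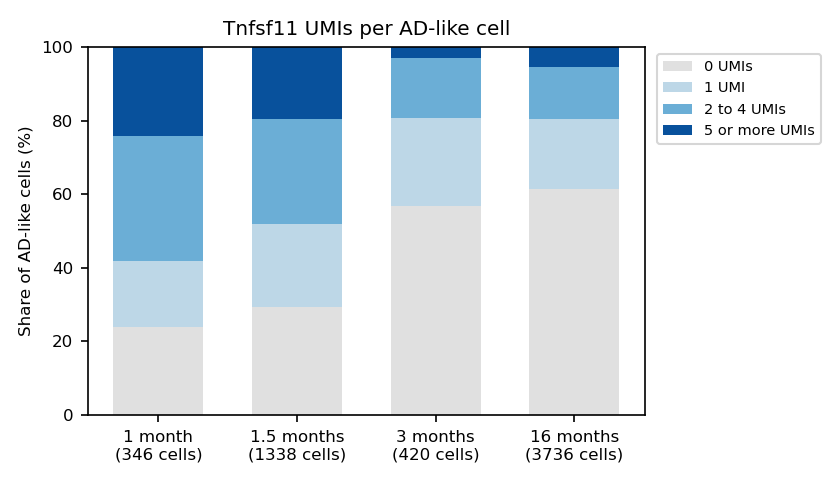
Share of AD-like cells (%) with 0, 1, 2 to 4, or 5 or more Tnfsf11 UMIs in each library, as stacked bars that add to all AD-like cells of that library. Cells with 5 or more UMIs number 84 of 346, 262 of 1338, 13 of 420 and 204 of 3736.

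AD-like cells were not uniform. At 1 and 1.5 months the cluster led by Ccl2, Cxcl9 and Adipoq held 639 and 598 CPM, with Tnfsf11 itself among its leading genes, and the cluster led by Kng1, Cxcl12 and Ebf3 held 226 and 219.5 CPM. At 16 months the cluster that led in Ccl2 and Il6 again held the most, 167 CPM, while 5 of the other clusters ranged from 60.8 to 97.0 CPM and the cluster led by Kit and Fabp4 held 20.4 CPM. LMP-like cells divided likewise: the cluster led by Ostn and Postn held 35.4, 73.9 and 69.7 CPM at 1, 1.5 and 3 months, against 10.1, 22.4 and 14.7 CPM in the cluster led by Nov, Nppc and Mfap4. In both classes the order was the same in every library that had both clusters.

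Unnamed mesenchymal clusters also held the ligand. The cluster led by Npy, Vcan, Kcnk2 and Hey1 had 88.4 and 135 CPM at 1 and 1.5 months, and the one led by Spp1, Col25a1 and Cdh15 had 80.4 and 124 CPM. At 3 months a cluster led by Limch1, Kcnk2 and Spp1 had 132 CPM (115 to 151, 227 cells). At 16 months the cluster led by Col25a1, Spp1, Dmp1 and Mmp13 had 118 CPM (108 to 128, 381 cells), and its interval lay above that of AD-like cells. As a class, AD-like cells were thus below this unnamed cluster at 16 months. The AD-like cluster that led in Ccl2 and Il6 was above it. Among unnamed clusters outside the mesenchymal cells, the one led by Ccl8, Txnip and Ccl4 held 50.7 and 87.6 CPM at 1 and 1.5 months, and a shallow one led by Chil3 and hemoglobin genes held 103 CPM at 16 months from 20 UMIs.

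As a share of all Tnfsf11 UMIs in kept cells, AD-like cells gave 59.1, 70.1, 38.6 and 77.7% from the youngest library to the oldest. They were 4.16, 24.5, 10.0 and 60.8% of the kept cells, which are shares among sorted and filtered cells and not in the marrow. The cluster led by Limch1 gave a further 23.5% at 3 months and LMP-like cells 13.7%, and the cluster led by Col25a1 gave 11.2% at 16 months. The share followed the number of AD-like cells as well as their level, and the 2 can only be read apart with the CPM values above.

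To ask where the decoy was made, Tnfrsf11b (chromosome 15, chr15:54250619-54278484, minus strand) was treated in the same way. It was highest in CH-like cells, in osteocyte-like cells and in unnamed clusters with the tendon gene Tnmd among their leading genes, and it was near 0 in the AD-like cells that held the ligand. CH-like cells read 41.5 CPM at 1 month (37.0 to 46.3, 570 cells), 34.6 CPM at 1.5 months (32.5 to 36.7, 2046 cells), 91.6 CPM at 3 months (84.9 to 98.7, 898 cells) and 555 CPM at 16 months (519 to 592, 117 cells). Each older value lay outside the interval of the 1-month value.

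Ocy-like cells had 64.6, 134, 47.0 and 37.5 CPM, from 41, 96, 33 and 46 cells. They were above CH-like cells at 1 and 1.5 months and below them at 3 and 16 months. OB-like cells held 10.7, 12.5, 16.6 and 6.86 CPM, and LMP-like cells 9.88, 7.99, 13.1 and 30.8 CPM. EMP-like cells held 6.87, 23.0, 53.0 and 11.4 CPM with no order in age. AD-like cells held 5.30, 5.15, 1.68 and 3.19 CPM, the third from 3 UMIs. Neutrophil-like cells read 0.527, 0, 0.557 and 0 CPM, where a count of 0 allows up to 14.5 CPM at 1.5 months and 1.79 CPM at 16 months.

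The cluster led by Angptl7, Myoc and Tnmd held 52.8 CPM of Tnfrsf11b at 1 month and 346 CPM at 1.5 months (314 to 379, 150 cells). Its 1.5-month UMIs came from 50 of those cells. A small cluster led by Chodl, Ptx4 and Prph, also with Tnmd among its leading genes, held 80.7 CPM at 1 month (40.3 to 144, 19 cells) and 156 CPM at 1.5 months (96.6 to 239, 18 cells), and its intervals overlapped those of Ocy-like cells. At 16 months the cluster led by Col25a1, Spp1, Dmp1 and Mmp13 held 56.1 CPM (49.6 to 63.3), beside its 118 CPM of the ligand. CH-like cells gave 50.2, 52.5, 79.3 and 60.2% of all kept Tnfrsf11b UMIs with 6.86, 37.5, 21.5 and 1.90% of the cells. AD-like cells gave 8.09% at 16 months.

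Among chondrocyte-like clusters, the one led by Col10a1 and Ihh, genes of prehypertrophic and hypertrophic cartilage, held 47.8, 28.8, 76.0 and 757 CPM. The one led by Sfrp5 and Notum held 63.2, 81.0 and 122 CPM at 1, 1.5 and 3 months. The one led by Anln and other cell-cycle genes held 13.1, 30.1 and 93.4 CPM. At 16 months the only other CH-like cluster, led by Scrg1 and Ucma, held 427 CPM (388 to 469.8, 55 cells). By detection 31.9, 28.4, 36.1 and 76.9% of CH-like cells held a UMI, and 11.2, 9.87, 20.4 and 55.8% after thinning. The higher 16-month level was seen in both clusters and after thinning, but these 117 cells were 1.90% of a library with another makeup, and CH-like cells of different zones make up the class at different ages.

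The ratio of Tnfsf11 to Tnfrsf11b UMIs compares classes within a library and does not measure protein. In AD-like cells it was 75.7 at 1 month (45.7 to 136, exact binomial interval), 81.9 at 1.5 months (60.9 to 113), 117 at 3 months (39.8 to 572, from 3 decoy UMIs) and 32.0 at 16 months (26.7 to 38.6). The 3-month ratio was 33.6 with the mitochondrial limit raised to 30%, near the 16-month value, so no order of these libraries in age is read from it. In CH-like cells the ratio was 0.232 (0.178 to 0.300), 0.385, 0.0901 and 0.0266, and the 1-month value was 0.0556 when clusters were made finer (resolution 1.2). In every library, AD-like and CH-like cells thus lay on opposite sides of 1.

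LMP-like cells were on the ligand side at 2.75, 7.74, 3.38 and 2.34. OB-like cells had 0.273, 1.25, 0.281 and 0.735, and Ocy-like cells 0.0233, 0.140, 0.0833 and 0.409, below 1 in all 4 libraries. EMP-like cells crossed 1, at 2.00, 0.478, 1.51 and 6.14. The cluster led by Angptl7 had 0.139 and 0.141, and the cluster led by Npy had 81.0 and 27.0. Over all kept cells the ratio was 3.02, 2.60, 1.03 and 3.33. This value joins the mix of classes with the levels inside them, and the part of each was not tested.

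**Figure D3:**
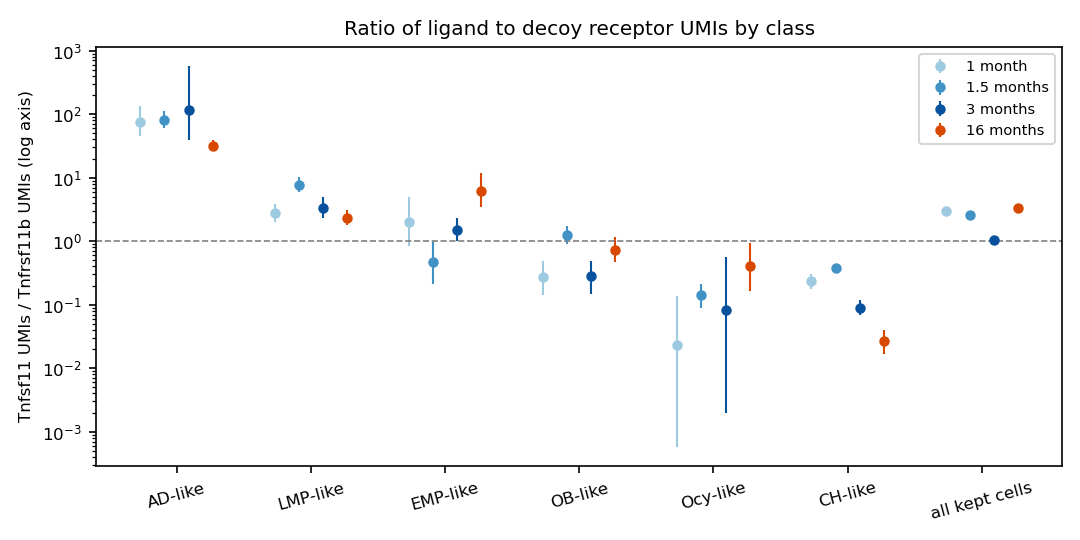
Ratio of Tnfsf11 UMIs to Tnfrsf11b UMIs by class and library on a log axis, with exact 95% binomial intervals and a dashed line at 1. AD-like cells lie from 32.0 to 117, and CH-like cells from 0.0266 to 0.385.

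Few cells were counted with both ligand and decoy, and few AD-like cells held any decoy UMI. Of AD-like cells with the decoy, 13 of 15 at 1 month also held the ligand. At 1.5 and 3 months these were 24 of 40 and 3 of 3. At 1.5 months 84 of 2046 CH-like cells held both, and Tnfsf11 was found in 14.5% of cells with Tnfrsf11b and in 14.2% of those without. At 1 month it was found in 3.30% of CH-like cells with Tnfrsf11b (1.22 to 7.04%) and in 10.1% of those without (7.25 to 13.5%). At 16 months 55 AD-like cells held both, and Tnfsf11 was in 52.4% (42.4 to 62.2%) of AD-like cells with the decoy against 38.3% (36.7 to 39.9%) of the others. Detection depends on the depth of a cell, and its part in these differences was not tested.

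The age comparison asked which genes at 16 months differed at least 2-fold from each younger library within a class, among genes with 20 CPM or more in 1 library. It is a rule of size for 1 library per age and not a test. In AD-like cells, Tnfsf11 was 1.93-fold lower at 16 months than the lowest younger library, just short of the rule and past a 1.5-fold step. Of the 3 members with enough counts in AD-like cells (Tnfsf11, Ctsk and Acp5), none was called higher, where 5.82% of 6586 genes were, and 1 was called lower (Acp5, 2.17-fold), where 2.99% were. In CH-like cells 3 members could be judged (Tnfrsf11b, Ctsk and Acp5). Tnfrsf11b was called higher (6.06-fold), as were 11.5% of genes, and Acp5 lower (7.40-fold), as were 10.2%. Of 4 members judged in LMP-like cells, Tnfrsf11b was called higher (2.34-fold, background 13.1%) and no member lower (background 5.50%). Of 4 judged in EMP-like cells none was higher (14.3%) and Acp5 was lower (4.07-fold, 6.13%). Of 2 judged in OB-like cells none was higher (3.65%) and Acp5 was lower (2.98-fold, 3.76%). In LMP-like cells Tnfrsf11b met the 20 CPM limit only at 16 months (30.8 CPM), where it was called higher. In AD-, CH- and OB-like cells Acp5 met it only at 1 month (30.4, 50.2 and 45.9 CPM). These members were judged only through the library where they were highest, so their calls are a description and not support.

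The Acp5 calls came with the same movement in neutrophil-like cells, where Acp5 read 25.5 CPM at 1 month, 11.7 CPM at 3 months and 2.38 CPM at 16 months, with none counted in the 21 cells at 1.5 months. The part of free RNA in these 4 calls was not tested. Ctsk, which was judged in all 5 classes, was called in none. With 2 to 4 members judged per class, a share of them called cannot be set against the shares of all genes.

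A second rule of size asked whether a gene was at least 2-fold above every other named mesenchymal class in every library in which that class had 50 cells. Tnfsf11 in AD-like cells was 14.8-fold above the next class where it stood out most and 1.42-fold at 16 months, and so was not called (1.74% of 8200 genes were). Tnfrsf11b in CH-like cells ranged from 0.258 to 18.0 times the next class and was not called (1.89%). In Ocy-like cells, judged at 1.5 months only, Tnfrsf11b was called at 3.88-fold (2.34%). Ctsk was highest in LMP-like cells in all 4 libraries, 1.26 to 1.90 times the next class, and was not called (0.390%). No member with enough counts was called in EMP-like (0.634%) or OB-like cells (0.317%).

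The osteoclast-like cells were a small cluster of 115, 6 and 54 cells at 1, 1.5 and 3 months, named from Mmp9, Nfatc1, Itgb3, Oscar, Slc9b2 and Ckb and not from the 9 genes. No such cluster formed among the kept cells at 16 months, although 17 cells took the name at resolution 0.5 and 18 with high doublet scores left out. All 6 cells at 1.5 months were among the highest doublet scores of their library, against 2.61% at 1 month and 7.41% at 3 months, and none took the name with such cells left out or with the library clustered alone, so the 1.5-month values are given with that doubt. The cells had less of the tomato transcript (1464, 1069 and 1079.5 CPM) than AD-like cells (4198, 3978 and 3543 CPM) of the same libraries.

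Tnfrsf11a, the RANK receptor (chromosome 1, chr1:105780718-105847981, plus strand), was shared by osteoclast-like and macrophage-like cells. It read 66.2 CPM (56.2 to 77.4), 47.5 CPM (4 UMIs) and 87.1 CPM (64.5 to 115) in osteoclast-like cells. In macrophage-like cells it read 39.5, 20.4, 29.2 and 44.4 CPM, the 16-month value from 19 UMIs in 37 cells. Osteoclast-like over macrophage-like cells gave 1.67-fold (1.34 to 2.10) at 1 month and 2.98-fold (1.93 to 4.63) at 3 months. Of its kept UMIs, macrophage-like cells held 39.4, 36.9 and 59.4% at 1, 3 and 16 months and osteoclast-like cells 37.5 and 44.1% at 1 and 3 months. Monocyte-like cells, the precursors in blood and marrow, read 2.96, 8.45, 0 and 6.98 CPM, and neutrophil-like cells 0.278 to 0.527 CPM where any UMI was seen.

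The fusion genes Ocstamp (chr2:165393760-165400405, minus strand) and Dcstamp (chr15:39745930-39760938, plus strand), both multi-pass membrane proteins of cell fusion, were sparse. Ocstamp read 62.8, 59.4 and 49.8 CPM in osteoclast-like cells, and 5.27 CPM at 1 month and 2.85 CPM at 3 months in macrophage-like cells. Dcstamp read 56.9, 131 and 28.5 CPM in osteoclast-like cells and 0.719 and 0.713 CPM in macrophage-like cells, the last pair from 3 UMIs and 1 UMI. The osteoclast-like level was 11.9-fold (7.59 to 19.6) and 17.5-fold (6.11 to 68.6) higher for Ocstamp, and 79.2-fold (26.5 to 389) and 39.9-fold (6.20 to 1675) for Dcstamp. Osteoclast-like cells held 62.9 and 77.8% of Ocstamp UMIs and 73.4 and 84.2% of Dcstamp UMIs at 1 and 3 months.

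Atp6v0d2 (chr4:19876841-19922605, minus strand), a subunit of the vacuolar proton pump, read 504 CPM (476 to 534), 677 CPM (513 to 877) and 419.7 CPM (368 to 477) in osteoclast-like cells. Macrophage-like cells read 7.43, 102, 35.6 and 147 CPM. The 16-month value came from 9 of 37 cells, and the 1.5-month value from 1 cell. Osteoclast-like over macrophage-like cells gave 67.9-fold (47.6 to 100.4) and 11.8-fold (8.65 to 16.3) at 1 and 3 months. Osteoclast-like cells held 86.2% of its kept UMIs at 1 month and 72.2% at 3 months.

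Acp5 read 4653 CPM (4566 to 4740.5), 4704 CPM (4252 to 5191) and 3205 CPM (3059 to 3356) in osteoclast-like cells. Macrophage-like cells read 205, 272, 159.6 and 152 CPM, which was 22.7-fold (21.2 to 24.4) lower at 1 month and 20.1-fold (17.5 to 23.2) lower at 3 months. Ctsk read 1932 CPM (1876 to 1989), 2685 CPM (2346 to 3059) and 1608 CPM (1505 to 1716), against 23.0, 20.4, 26.4 and 7.01 CPM in macrophage-like cells, a difference of 84.0-fold (68.6 to 104) and 61.0-fold (43.9 to 87.2) at 1 and 3 months. All 5 genes other than the receptor were thus over 10-fold higher in osteoclast-like cells at both ages, and all 6 passed a 2-fold step at 3 months, where 23.8% of 5406 genes did. At 1 month 5 of the 6 passed it, where 14.3% of 5290 genes did. Ocstamp and Dcstamp at both ages, and Atp6v0d2 at 1 month, reached 20 CPM only in osteoclast-like cells. Their direction was thus fixed by that limit, and the counts of genes passing are a description and not support.

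**Figure D4:**
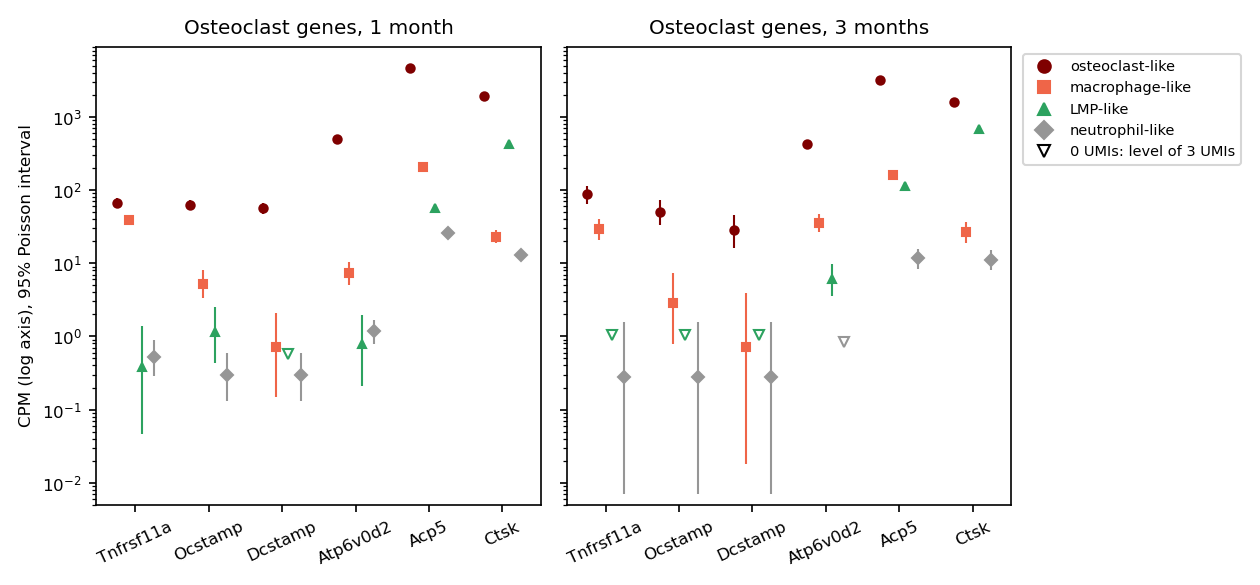
Level of 6 osteoclast genes at 1 month (left) and 3 months (right) in osteoclast-like, macrophage-like, LMP-like and neutrophil-like cells, in CPM on a log axis with exact 95% Poisson intervals, and open triangles at the level of 3 UMIs for 0 UMIs. Acp5 in osteoclast-like cells is at 4653 and 3205 CPM, and Ctsk is next highest in LMP-like cells, at 419.5 and 677 CPM.

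Within the osteoclast-like cluster the cells were uneven. At 1 month Acp5 ran from 0 to 550 UMIs per cell with a median of 65.0, and Ctsk from 0 to 232 with a median of 3.00. At 3 months Acp5 ran from 0 to 196 with a median of 14.5, and Ctsk was found in 22 of 54 cells, with up to 152 UMIs. The top 10% of cells held 44.9 and 60.0% of the cluster's Ctsk UMIs at 1 and 3 months. Of the 115 cells at 1 month, 74 held Ctsk and 108 held Acp5, so a part of the cluster carried Acp5 without a Ctsk count.

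Ctsk was not confined to osteoclast-like cells. LMP-like cells held 419.5, 553, 677 and 557 CPM, EMP-like cells 333, 417, 373 and 293 CPM, and OB-like cells 152, 117, 140.0 and 269 CPM. AD-like cells held 204, 183, 155 and 162 CPM and CH-like cells 114, 58.5, 72.6 and 59.7 CPM. Neutrophil-like cells read 11.1 to 28.9 CPM. A Ctsk UMI was found in 93.1, 92.2, 91.4 and 91.8% of LMP-like cells, against 64.3 and 40.7% of osteoclast-like cells at 1 and 3 months. Within LMP-like cells the cluster led by Nov, Nppc and Mfap4 was higher (555, 795 and 804 CPM) than the one led by Ostn and Postn (354, 479 and 569 CPM), the reverse of the order for Tnfsf11. Osteoclast-like cells held 37.6% of kept Ctsk UMIs at 1 month and 18.1% at 3 months, LMP-like cells 17.8, 39.2, 38.2 and 12.0%, and AD-like cells 53.9% at 16 months.

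Acp5 outside the osteoclast lineage was lower. LMP-like cells held 56.7, 57.7, 115 and 50.6 CPM, above the neutrophil-like 25.5, 0, 11.7 and 2.38 CPM in each library. Erythroid-like cells held 123, 183, 102 and 64.9 CPM and gave 28.8% of the kept Acp5 UMIs at 16 months. Osteoclast-like cells gave 65.6, 24.9 and 63.0% at 1, 1.5 and 3 months.

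Calcr, the receptor through which calcitonin stops resorption (chr6:3685680-3764714, minus strand), was close to undetected. The 4 libraries held 3, 2, 4 and 5 UMIs, 14 in all. Only 3 were in kept cells, 1 of them in an osteoclast-like cell at 1 month (0.422 CPM), and 11 were in barcodes outside the filter. The depth does not allow a level by class.

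The filter on mitochondrial share removed osteoclast genes more than the average gene. Barcodes outside the filter held 1.34, 3.04, 5.08 and 27.4% of all UMIs at 1, 1.5, 3 and 16 months. They held 17.0, 23.6, 56.9 and 87.9% of the Acp5 UMIs and 11.3, 5.18, 29.3 and 35.9% of the Ctsk UMIs. For Atp6v0d2 the removed shares were 9.46, 25.0, 41.4 and 79.8%, for Ocstamp 13.5% at 1 month to 84.1% at 16 months, and for Dcstamp 11.1, 25.0, 61.2 and 94.9%. Tnfrsf11a lost 3.23, 17.6, 27.0 and 65.2%. The ligand and decoy were not lost in this way: Tnfsf11 lost 2.24, 2.39, 2.04 and 25.4%, and Tnfrsf11b 1.40, 1.69, 1.56 and 16.9%, both below the share of all UMIs at 1.5, 3 and 16 months and above it at 1 month. Totals per library before the filter were 20252, 2083, 6634 and 4832 UMIs of Acp5. These shares depend on the limit, and the study's cell numbers at the older ages are larger than its stated filter leaves here. A limit of 30% kept 8406, 5744, 4502 and 8788 cells and removed 0.104, 0, 1.16 and 49.8% of the Acp5 UMIs, against 0.586, 0.00508, 0.401 and 5.41% of all UMIs.

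**Figure D5:**
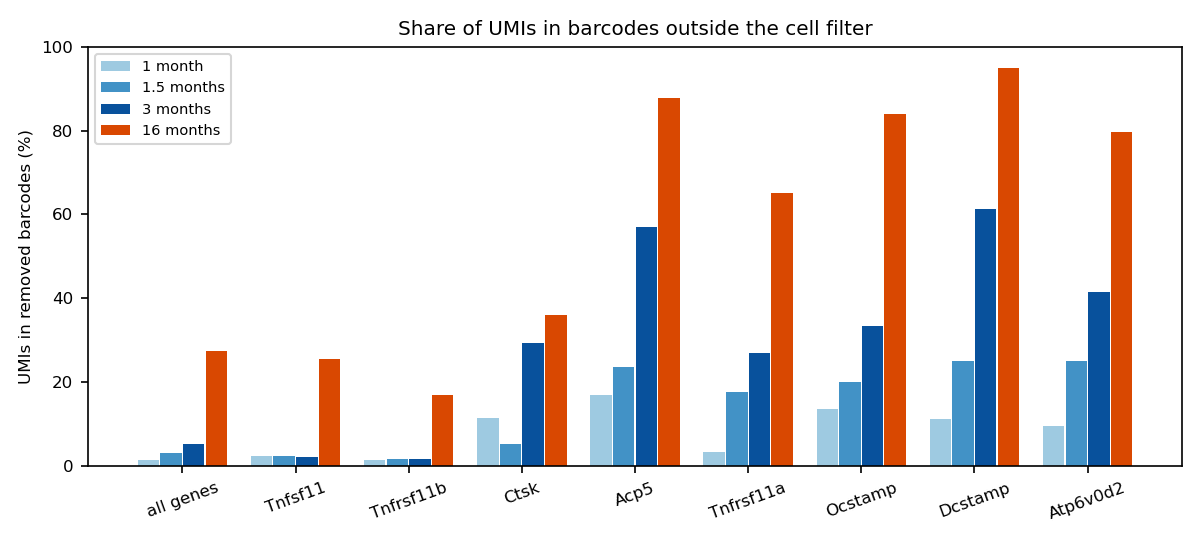
Share (%) of the UMIs of all genes and of 8 members that lay in barcodes outside the cell filter, as bars for each library. Acp5 reaches 56.9% at 3 months and 87.9% at 16 months, against 5.08 and 27.4% for all genes, while Tnfsf11 and Tnfrsf11b stay at or below the share of all genes at 3 and 16 months.

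Barcodes with at least 4 of the 7 osteoclast genes counted were 83, 5, 44 and 8 in the 4 libraries, of which 10, 1, 22 and 8 lay outside the filter. All 8 at 16 months were removed. Summed, the removed barcodes read 20931, 23594, 17283 and 16322 CPM of Acp5 and 8951, 11672, 9183 and 9446 CPM of Ctsk, above every kept osteoclast-like value. Atp6v0d2 read 892, 1453, 960.5 and 1283 CPM and Tnfrsf11a 74.3, 50.1, 132 and 106 CPM. Calcr reached 6.19, 50.1, 21.1 and 16.3 CPM, from 1, 1, 4 and 4 UMIs. Mmp9, a matrix protease of osteoclasts that did not choose these barcodes, read 5371, 5610.4, 5599 and 13051 CPM. The stromal gene Pdgfra read 6.19, 0, 10.6 and 8.15 CPM, but the osteogenic gene Col1a1 read 439.8, 551, 206 and 114 CPM. The tomato transcript read 2112, 3256, 1794 and 436 CPM. The part of free RNA in these values was not tested. The members named here are among the 7 genes that chose the barcodes, so their level is a description.

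By mitochondrial share, barcodes with 3 or more osteoclast genes were 2.18% of those up to 5% mitochondrial UMIs at 1 month and 13.8% of those between 5 and 10%. At 3 months they were 1.07, 5.47 and 29.2% (14 of 48 barcodes) in the ranges up to 5, 5 to 10 and 10 to 30%. At 16 months they were 0.192, 0.679 and 0.492%. With the limit raised to 30%, a choice made after these values were seen, osteoclast-like cells numbered 132, 8, 91 and 0, and their Acp5 level was 5168, 7796 and 6576 CPM at 1, 1.5 and 3 months. Their Ctsk level at 3 months was then 3419 CPM, against 1608 CPM. At 16 months the monocyte-like class of 92 cells then held 1560 CPM of Acp5 and 784 CPM of Ctsk. Monocyte-like cells at 1 and 3 months held 33.2 and 13.6 CPM of Acp5. The 0 at 16 months thus counts named cells and not osteoclast signal. Without that change kept cells with 3 or more of the genes numbered 181, 11, 45 and 12. At 1 month 88 of the 181 were osteoclast-like and 28 macrophage-like, and at 16 months 4 of the 12 were LMP-like.

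Other genes of the pathway were read from 8 lists of its ligands, signals and effectors, by the class in which each gene was highest at 1 and 3 months, the ages with 50 or more osteoclast-like cells. Csf1 and Il34, the ligands of the macrophage growth factor receptor, were highest in AD-like cells, as Tnfsf11 was. Among all genes with 20 CPM in one of the classes compared, 16.2% at 1 month and 12.0% at 3 months were highest there. Csf1 there read 177, 343, 346 and 631 CPM and Il34 51.9, 272, 359.5 and 231 CPM, so at 16 months Csf1 was above, and Il34 within, the range of the younger libraries. Their receptor Csf1r was highest in macrophage-like cells (528 and 487 CPM) and lower in osteoclast-like cells (239 and 352 CPM).

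Of 8 RANK signalling and transcription genes with 20 CPM, 5 were highest in osteoclast-like cells at 1 month and 4 at 3 months, the naming marker Nfatc1 included. Of all genes, 15.6% of 8080 at 1 month and 15.2% of 8606 at 3 months were highest there. Spi1, which encodes PU.1, read 683 and 587 CPM there. Fos was instead highest in AD-like cells (3853 and 5952 CPM) and Irf8, a brake on osteoclast formation, in monocyte-like cells (293 and 325 CPM). Nfatc1, the main osteoclast transcription factor, read 158 and 245 CPM against 14.6 and 18.5 CPM in macrophage-like cells, but it was among the naming markers. Of 5 costimulation genes 3 reached 20 CPM (Fcer1g, Tyrobp and Trem2), and these 3 were highest in macrophage-like cells at both ages. Of all genes, 8.66 and 7.46% were highest there. Fcer1g there read 3501 and 4178 CPM. Below 20 CPM, the naming marker Oscar read 7.59 and 7.11 CPM in osteoclast-like cells and 0 in macrophage-like cells. Sirpb1a read 0.843 and 5.34 CPM in osteoclast-like cells and 3.59 and 12.8 CPM in macrophage-like cells.

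Of the resorption genes, 8 of 11 at 1 month and 7 of 8 at 3 months were highest in osteoclast-like cells, with the naming markers Mmp9 and Slc9b2 among them at both ages. Of all genes, 15.6 and 15.2% were highest there. Tcirg1, a subunit of the proton pump, read 199 and 126 CPM there. Car2, the carbonic anhydrase that supplies protons, was highest in endothelial-like cells at 1 month (224 CPM) and in osteoclast-like cells at 3 months (72.9 CPM). Mmp14, a membrane-bound collagenase, was highest in LMP-like cells (923 and 595 CPM). Of 6 fusion genes 3 were highest in osteoclast-like cells, and these 3 were the members Ocstamp, Dcstamp and Atp6v0d2.

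Of 7 inducers and receptors that raise RANKL, 2 were highest in AD-like cells at 1 month and 3 at 3 months, where 16.2 and 12.0% of all genes were. Pth1r, the parathyroid hormone receptor, was highest in CH-like cells (555, 1463, 2005 and 869.7 CPM) and read 238, 256, 136 and 127 CPM in AD-like cells. Il1r1, an interleukin 1 receptor, read 64.3, 108, 115 and 171 CPM in AD-like cells. Il6st and Osmr, receptor chains of the interleukin 6 family, were highest in EMP-like cells at 1 month (134 and 61.0 CPM) and in endothelial-like cells at 3 months (970.4 and 128 CPM). Of the genes that bind or shed RANKL or OPG, 1 of 4 at 1 month and 1 of 5 at 3 months was highest in AD-like cells, and both times it was the syndecan Sdc1 (171 and 165 CPM). Of 5 coupling genes, which signal from osteoclasts to osteoblasts, 1 was highest in osteoclast-like cells at each age (Sema4d, 73.3 and 85.4 CPM, named after its values were seen). Of all genes, 15.6 and 15.2% were highest in osteoclast-like cells. A count of 1 among 4 or 5 genes cannot be told from such shares. Sphk1, which makes sphingosine 1-phosphate, was highest in AD-like cells (95.4 and 150.4 CPM), and Cthrc1 in OB-like cells at 1 month (1081 CPM) and LMP-like cells at 3 months (539 CPM).

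The genes with the pattern most like Tnfsf11 over 60 sums of class and library, by Pearson's r of log2(CPM + 1) among 10587 genes, were Tle2 (0.935), Podnl1 (0.930), Fhl2 (0.904), Mdk (0.901) and Sulf1 (0.897), all highest in AD-like cells. Those most like Tnfrsf11b were Sema3d (0.845), Plod2 (0.845), Cemip (0.842), Cspg4 (0.840) and Ngef (0.836), of which 4 were highest in CH-like cells at 16 months. The sums share libraries, depth and free RNA, so r is a description. Among the members, Ocstamp went with Dcstamp (0.799) and Atp6v0d2 (0.791), and Acp5 with Atp6v0d2 (0.777). Ctsk had r of 0.309 with Acp5 and 0.533 with Tnfsf11.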

How the data were processed

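Single-cell RNA-seq of Td+ endosteal bone marrow cells gave 4 libraries, 1 pooled library per age, grouped by the age in the labels. The files hold raw counts: UMI counts per gene and barcode in filtered 10x matrices, which the authors deposited without normalization. Per the submitters' processing notes and the study's methods, Cell Ranger 3.0.2 aligned reads to a modified mm10 genome and Seurat 2 served for the study's clustering. No column belonged to other samples (0 such columns).

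Barcodes outside 200 to 6000 genes, or over 5% mitochondrial UMIs, were removed. Doublets were not removed: Scrublet (scanpy 1.11.5) scored them, and leaving out the top 8% per library was an alternative. Clustering used Seurat 5.3.0 in R 4.3.3 (2000 variable genes without the members, the pathway lists and the naming markers, 30 components, resolution 0.8), with the 1- and 1.5-month libraries joined by anchors and the others alone, first over all cells and then within mesenchymal and other cells. Classes were named from at least 3 raised markers. Counts were summed per class and library in Python 3.11.15 (numpy 2.4.6, scipy 1.17.1, pandas 2.3.3). With no replicates, no differential test was run. Rules of size (2-fold, 20 CPM, 50 cells) stood in, read against the share of all genes that passed them. The age rule and the intervals were tested on simulated data. Depth ran from 32672631 to 108227184 UMIs per library, and 0 UMIs allow up to 3. Kept cells under 3000 UMIs (0, 0, 312 and 518) were left out of thinned values.

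The named genes are the 9 members and, per pathway list, up to 4 genes of highest CPM. Members and lists were chosen with earlier results of these data known. Alternatives changed the mitochondrial limit, gene limit, doublets, components, resolution, joint clustering, averaging and thresholds. Promoters came from RefSeq (GRCm38.p6), which held windows for Tnfsf11, Tnfrsf11a, Ctsk, Acp5 and Calcr, and not for Tnfrsf11b, Ocstamp, Dcstamp and Atp6v0d2.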

Additional observations from a re-analysis of the deposited data

Results flagged for a closer look

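Signal of the osteoclast genes lay in barcodes that no comparison of kept cells used. Of all Acp5 UMIs, 17.0, 23.6, 56.9 and 87.9% in the 1, 1.5, 3 and 16-month libraries were in barcodes outside the cell filter, against 1.34, 3.04, 5.08 and 27.4% of the UMIs of all genes. Barcodes with 4 or more osteoclast genes outside the filter numbered 10, 1, 22 and 8 in the same order, and each of them was over 5% mitochondrial UMIs. Their median was 14245, 19963, 8348 and 30282 UMIs, against library medians of 10238, 9309, 5998 and 8648, and a count of 4 sparse genes favours deep barcodes by construction. With a 30% mitochondrial limit the removed Acp5 shares were 0.104, 0, 1.16 and 49.8%. At 16 months 2 of the 8 were also over 6000 genes. Calcr had 11 UMIs in removed barcodes and 3 in kept cells over all libraries. Whether a high mitochondrial share marks damaged cells or osteoclasts was not tested.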

How the results depend on the processing

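No paired analysis was possible because each age is 1 library and no replicate numbers are shared. No value changed sign and no call turned to the opposite direction. The osteoclast-like cluster of 6 cells at 1.5 months did not form without high doublet scores or with the library alone. Of 704 values recomputed, 584 stayed within their counting interval or within 1.5 times for a count. The main levels (Tnfsf11 in AD-like, Tnfrsf11b in CH-like and Acp5 in osteoclast-like cells) moved more often. As a mean over cells 9 of these levels moved and 1 stayed, and when thinned 5 moved and 5 stayed. The cause of the moves was not tested. The 30% limit and leaving out barcodes shared between libraries were chosen after seeing the data.

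Tnfsf11 in AD-like cells at 1 month was 458 CPM with 20 components, 486 with a 10% and 506 with a 30% mitochondrial limit, 320.4 with no gene limit, 482 without high doublet scores and 434 as a mean over cells. At 1.5 months these were 439, 440.2, 451, 385, 447 and 442, with 438 clustered alone and 457 thinned. At 16 months it was 108 at 10%, 97.2 as a mean and 97.3 thinned. Tnfrsf11b in CH-like cells at 1 month was 48.8 at resolution 1.2, 50.5 alone, 49.2 at 30% and 47.7 as a mean. At 1.5 months it was 31.8 alone, 45.5 as a mean and 46.4 thinned, at 3 months 102 and 103, and at 16 months 612 as a mean.

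Acp5 in osteoclast-like cells at 1 month was 4412 at resolution 1.2, 4949 at 10%, 5168 at 30%, 4257 as a mean and 4052 thinned. At 3 months it was 2794 with 20 components, 4780.4 at 10%, 6576 at 30%, 3517 without high doublet scores and 3004 as a mean. At 16 months osteoclast-like clusters of 17 and 18 cells formed at resolution 0.5 and without high doublet scores. Weighted by cells, AD-like cells held 69.7, 80.3, 48.6 and 74.8% of Tnfsf11 and CH-like cells 53.6% of Tnfrsf11b at 16 months. The ratio was 33.6 in AD-like cells at 3 months at 30%, and 0.0556 (resolution 1.2) and 0.0513 (30%) in CH-like cells at 1 month.

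With a 1.5-fold step, the 1.93-fold lower Tnfsf11 was called, and 1047 genes were higher and 649 lower at 16 months in AD-like cells (383 and 197 at 2-fold) and 1260 and 1120 in CH-like cells (671 and 597). With at least 2 osteoclast genes, cells numbered 1496, 648, 412 and 263, and with 3 genes 74 at 3 months at 30% and 24 and 26 at 16 months at 10 and 30%. Depth limits Calcr and classes under 50 cells.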
